A study of Mus musculus with 21 samples.

Results

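The second half-day of erythroid differentiation, from 12 to 24 h, was followed in MEDEP cells by setting the 3 libraries of 24 h against the 3 of 12 h. These 6 of the 21 libraries of the series were chosen by their labels alone. MEDEP cells (line BRC5) are red cell progenitors of the mouse that were raised from embryonic stem cells and keep dividing in culture, and every library comes from that 1 line. The cells had grown with stem cell factor (SCF) and dexamethasone, and differentiation began when both were left out and 4 U/ml erythropoietin (Epo) was given. Both groups therefore had no SCF and no dexamethasone, had Epo and had no succinyl acetone, and by their labels differed in time only, while the culture was kept at its density by dilution with the same medium. This is a step in which no factor of the medium changed. The 0 h libraries (cells with SCF and dexamethasone) and those of 36 h (same medium) served to show whether a gene moved differently in the step before or after.

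Early in red cell formation a progenitor goes on dividing while it starts to make hemoglobin. Epo acts through its receptor and the factor STAT5, whereas GATA1, KLF1 and TAL1 switch on the genes for heme, globins and the membrane skeleton, and the progenitor factors MYB and GATA2 and the SCF receptor KIT fade. Cholesterol synthesis is controlled by SREBP2, a factor held in the endoplasmic reticulum and released when sterols are low, and ribosome production is controlled in large part by MYC.

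Polyadenylated RNA was sequenced with strand-specific libraries, and the values are estimated counts per gene. The total was 30.1 ± 6.29 M counts (mean ± SD, n = 3) in the 12 h libraries and 31.5 ± 7.23 M in those of 24 h, and the lowest of the 6 held 23.5 M. Levels are given as normalized CPM (counts scaled to library size and by TMM, which sets the middle of the genes equal between libraries), and changes as log2 of 24 h over 12 h with their standard error (n = 3 against 3 throughout). A gene was called at an adjusted p of at most 0.05 in edgeR's quasi-likelihood test with Benjamini-Hochberg adjustment over 12360 genes, and rose, fell and changed are used of called genes only. The deposited TPM values correct for gene length and share out a fixed sum, and their median change was -0.32, against 0.00 on the TMM scale. Where a list median of this step is given, it is therefore shown on both scales. A gene said to be not called in TPM lost its call in limma on log2(TPM + 1). Members of a gene list are given as those that passed the low-count filter, which left out 9 of 17 listed progenitor regulators, 5 of 25 p53 targets, 11 of 67 histone cluster genes and at most 4 genes of any other pathway list. Bulk values cannot tell fewer cells of a type from less RNA per cell.

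The cells carried the markers of an erythroid line at both times, with the transferrin receptor Tfrc at 2476, 2485 and 2519 CPM at 12 h and 6023, 5668 and 5573 CPM at 24 h and the Epo receptor Epor at 104, 101 and 97.3 CPM at 12 h and 135, 129 and 129.5 CPM at 24 h. In 24 h replicate 1 genes of low oxygen and glycolysis stood apart: 24 of 29 tested members of that list had their lowest value of the 6 libraries there, against 17.4% of all tested genes. Bnip3, a mitophagy gene induced by low oxygen, was at 40.2, 66.9 and 59.8 CPM at 12 h and 5.68, 74.7 and 50.9 CPM at 24 h. Results that this library decides are given with and without it.

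Of the 12360 genes 2358 (19.1%) rose and 2721 (22.0%) fell, 41.1% in all, and 556 (4.5%) rose and 609 (4.93%) fell at least 2-fold. In 58.6% of genes the 3 values of 12 h and the 3 of 24 h did not overlap. The split depends on the scale: in TPM 602 genes (6.32% of 9525) were higher and 4286 (45.0%) lower, and with each library centred on its median 2411 (25.3%) were higher and 2251 (23.6%) lower. Those shares, 19.1% for rises and 22.0% for falls, are what the counts of each gene group below are read against.

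The room that gene groups took in the libraries shifted toward hemoglobin. The 10 globin genes went from 1.28 ± 0.107% of the estimated counts (mean ± SD, n = 3) to 4.76 ± 0.441%, and in TPM, which corrects for gene length, from 3.50 ± 0.275% to 15.0 ± 1.37%. The 8 genes that gained most room were Hbb-bs, Hba-a2, Hbb-bt, Hba-a1, the anion exchanger Slc4a1, the polyamine enzyme Odc1, Tfrc and the proliferation marker Mki67, which together went from 2.77 ± 0.0577% to 7.86 ± 0.485%. The 77 genes of the cytosolic ribosome went from 5.87 ± 0.366% to 4.92 ± 0.162%, and the 13 of the mitochondrial genome from 5.45 ± 0.0760% to 4.95 ± 0.237%. Among the single genes that lost most room, carboxypeptidase D (Cpd) fell by 1.95 ± 0.15, with 787, 811 and 830.0 CPM at 12 h and 185, 203 and 239 CPM at 24 h, and the chaperone Hsp90ab1 fell by 0.90 ± 0.09. Eef1a1, Pabpc1, mt-Nd1, mt-Nd2, mt-Co1 and mt-Cytb also lost room, with log2 changes between -0.23 and 0.18 on the TMM scale that were not called.

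**Figure D1:**
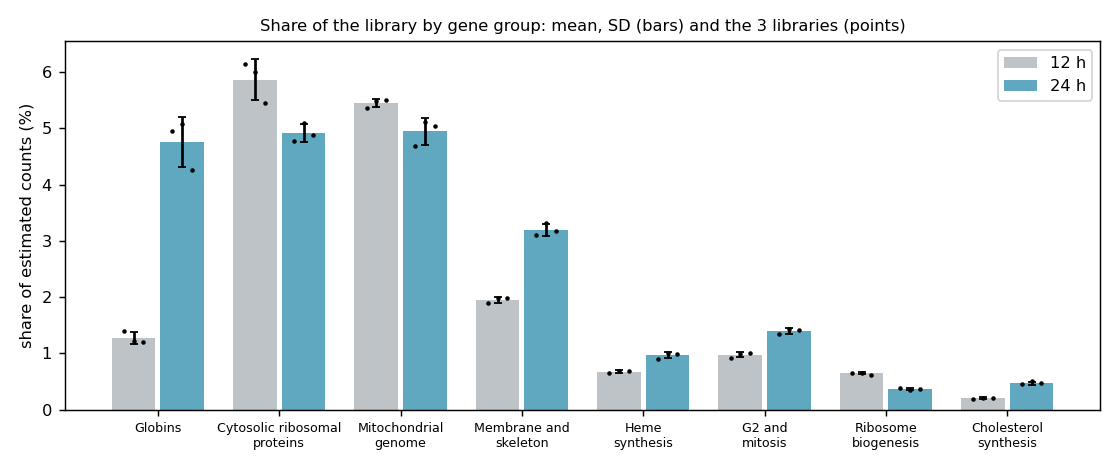
Share of the estimated counts (%) taken by 8 gene groups at 12 h (grey) and 24 h (blue), with bars for the mean, error bars for the SD and points for the 3 libraries. The globin share went from 1.28 to 4.76% and the share of ribosome biogenesis genes from 0.647 to 0.375%, and the libraries of the groups did not overlap.

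Cholesterol synthesis rose almost as a whole. Of 23 tested genes of the pathway 20 rose and 1 fell, and the median change was 1.39 (1.06 in TPM), and all 20 were also called higher in TPM. The promoter of Hmgcs1, the enzyme that opens the mevalonate route and the member with the largest change, is shown for its sterol regulatory element, the site that SREBP binds (capitals, starting 137 bases before the start of the gene). The 250 bases before the start, at chr13:119690101-119690350 on the plus strand (RefSeq, GRCm38.p6), read 5′ to 3′ as follows.
Hmgcs1: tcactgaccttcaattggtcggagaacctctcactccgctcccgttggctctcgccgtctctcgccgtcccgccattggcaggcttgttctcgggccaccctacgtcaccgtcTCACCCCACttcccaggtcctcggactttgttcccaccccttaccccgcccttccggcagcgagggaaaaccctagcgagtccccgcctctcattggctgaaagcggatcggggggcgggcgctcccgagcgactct
Hmgcs1 was at 50.7, 58.1 and 67.6 CPM at 12 h and 262, 299.7 and 277 CPM at 24 h, a rise of 2.25 ± 0.16 (adjusted p = 1.97e-09). Every 24 h library was more than 3 times as high as any of 12 h, so the groups lie far apart.

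Members of the early and of the late part of the pathway rose. Of the early, mevalonate part, Mvk and Mvd, which phosphorylate mevalonate and decarboxylate its product, rose by 1.20 ± 0.12 and 1.79 ± 0.14, and Idi1, which makes the active isoprene unit, by 1.97 ± 0.16. Fdps and Fdft1 build farnesyl diphosphate and squalene and rose by 1.67 ± 0.12 and 1.94 ± 0.15. The enzymes that close and trim the sterol ring rose too, with Sqle at 1.52 ± 0.13, Lss at 1.64 ± 0.15, Cyp51 at 1.58 ± 0.17 and Msmo1 at 1.84 ± 0.15. The call that went down was Ggps1, which diverts the intermediate into geranylgeranyl diphosphate for protein anchoring rather than into sterols (-0.36 ± 0.09). Dhcr7, which makes the final reduction to cholesterol, was not called (0.07 ± 0.11), nor was Erg28 (0.17 ± 0.13).

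Genes that sense and import sterols moved with a part of this. Insig1, an SREBP target that holds SREBP back, rose by 1.87 ± 0.13, with 46.1, 56.8 and 57.1 CPM at 12 h and 176, 214 and 195 CPM at 24 h. The sterol carrier Stard4 rose by 1.55 ± 0.15, the receptor Lrp8 by 1.11 ± 0.13, and Srebf2, which encodes SREBP2, by 1.02 ± 0.11. Srebf1 rose by 0.53 ± 0.11, which was not called in TPM. Scap, the escort of SREBP, fell by 0.63 ± 0.10, its protease Mbtps2 by 0.48 ± 0.13 and the lysosomal lipase Lipa, at under 2 CPM, by 1.37 ± 0.23. In all, 7 of 20 tested members rose and 3 fell, and in TPM 5 were higher and 4 lower.

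The median change of the cholesterol synthesis genes had been 0.65 in the step to 12 h. In 9 of 23 genes the change to 24 h exceeded the gene's own change to 12 h by the test of the difference, against 11.4% of all genes. Hmgcs1 had changed by 1.04 ± 0.16 in the first half-day, and the difference between its steps had an adjusted p = 0.00236. No member differed the other way. The step after had a median of 0.39, and in 19 of 23 genes its change lay below that to 24 h, against 29.6% of all genes. Neighbouring steps share libraries, so these 3 values are not independent of each other.

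The sterol site itself was rare in the windows searched. RefSeq promoter windows, from 250 bases before to 50 bases after a start, were found for 9552 tested genes, and motifs were sought as exact letters on both strands. TCACNCCAC was found in 1 of 18 cholesterol synthesis genes with a window, namely Hmgcs1, and in 1.39% of all tested genes. CCAAT, the site of NF-Y, was in 16 of 18 (88.9%), against 43.5% of all tested genes. In the other lists searched its share ran from 25.7% (ribosome biogenesis) to 82.1% (G2 and mitosis).

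Fatty acid synthesis was split. Of 23 tested genes 9 rose and 4 fell, and the median change was 0.14 (-0.18 in TPM). In TPM 4 were higher and 7 lower. Fasn, which builds palmitate, rose by 1.11 ± 0.14, with 284, 283 and 285 CPM at 12 h and 665, 584 and 584 CPM at 24 h. Aacs, which feeds acetoacetate into lipid synthesis, rose by 1.35 ± 0.14 and Acsl1, which activates fatty acids, by 0.92 ± 0.10. The desaturase Scd2 rose by 0.92 ± 0.20 (not called in TPM). The elongase Elovl5 fell by 0.88 ± 0.12, Hacd2 by 0.50 ± 0.10 and the desaturase Fads3 by 0.42 ± 0.12, the last not called without 24 h replicate 1, where 2 members fell. Aacs and Fasn had not risen in the first half-day (-0.97 ± 0.14 and 0.02 ± 0.14), and both differed between the steps (adjusted p = 4.31e-07 and adjusted p = 0.00193).

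**Figure D2:**
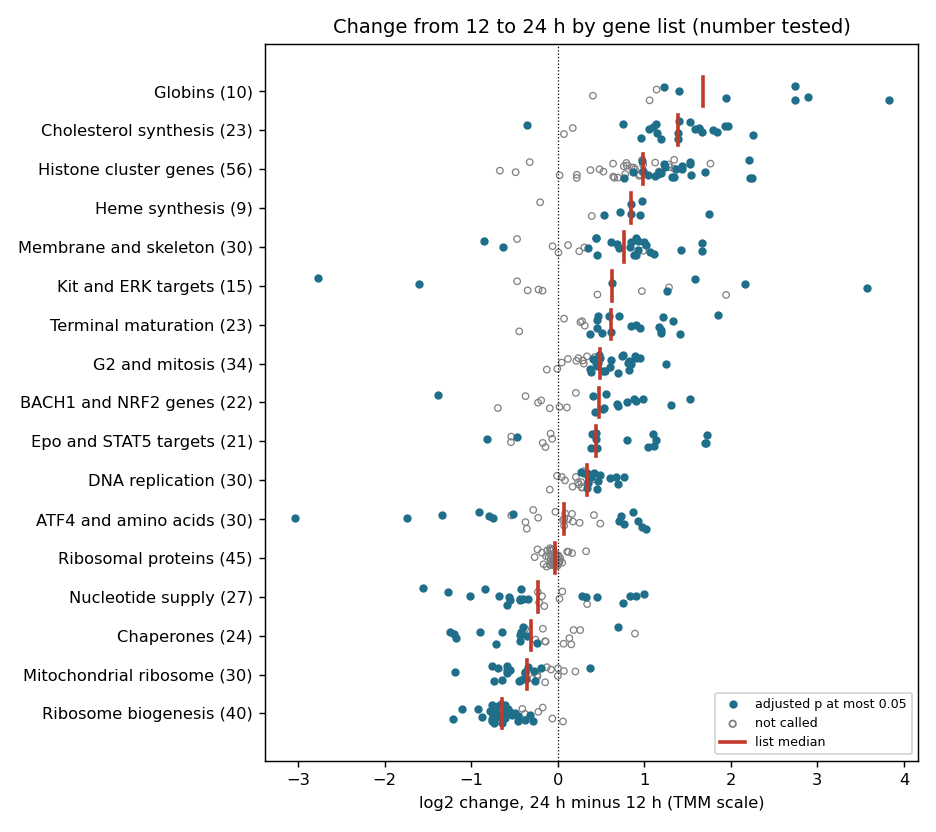
Change from 12 to 24 h (log2, TMM scale) of each tested member of 17 gene lists, with filled points for called genes, open points for genes not called and a red bar for the list median. The medians run from 1.67 for the globins to -0.64 for ribosome biogenesis, while all tested genes have a median of 0.00.

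Genes of mitosis and of DNA replication rose, and on the TPM scale few of the first and none of the second were called. Of 34 tested genes of G2 and mitosis 24 rose and none fell, and the median change was 0.48 (0.17 in TPM). A pair of promoters is shown for the cell cycle homology region (TTTGAA, capitals), an element through which many mitotic genes are repressed outside G2. Mki67 lies on the minus strand (chr7:135716380-135716629) and holds it at 116 and 98 bases before the start, and Ube2c lies on the plus strand (chr2:164769679-164769928) and holds it in reverse at 29 bases.
Mki67: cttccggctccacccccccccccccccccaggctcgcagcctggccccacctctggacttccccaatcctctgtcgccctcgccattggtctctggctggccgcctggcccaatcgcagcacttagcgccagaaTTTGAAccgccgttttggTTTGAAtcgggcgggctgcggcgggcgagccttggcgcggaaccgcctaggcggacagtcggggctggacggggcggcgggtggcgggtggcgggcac
Ube2c: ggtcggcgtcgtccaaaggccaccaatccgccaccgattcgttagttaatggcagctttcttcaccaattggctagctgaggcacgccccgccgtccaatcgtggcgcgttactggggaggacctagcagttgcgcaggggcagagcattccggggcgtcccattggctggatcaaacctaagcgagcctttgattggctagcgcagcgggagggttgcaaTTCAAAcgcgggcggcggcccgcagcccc
TTTGAA was in 19 of 28 windows of the list (67.9%), against 15.1% of all tested genes and 4 of 24 of the DNA replication list. Mki67, a protein of the surface of mitotic chromosomes, was at 1405, 1419 and 1566 CPM at 12 h and 3240.1, 3653 and 3577 CPM at 24 h and rose by 1.25 ± 0.20. Ube2c, which marks mitotic cyclins for destruction, rose by 0.95 ± 0.14, the spindle factor Tpx2 by 0.89 ± 0.15 and cyclin A2 (Ccna2) by 0.90 ± 0.17. Ccna2 was not called in TPM, nor were Ube2c and Tpx2 there with a pseudocount of 0.1, and 5 of the 34 genes were called higher in TPM.

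Of 30 DNA replication genes 15 rose and none fell, and the median change was smaller at 0.34 (0.02 in TPM). Uhrf1, which carries DNA methylation through replication, is shown for its E2F site (capitals, 185 bases before the start). It was chosen after the values were seen and lies at chr17:56304063-56304312 on the plus strand.
Uhrf1: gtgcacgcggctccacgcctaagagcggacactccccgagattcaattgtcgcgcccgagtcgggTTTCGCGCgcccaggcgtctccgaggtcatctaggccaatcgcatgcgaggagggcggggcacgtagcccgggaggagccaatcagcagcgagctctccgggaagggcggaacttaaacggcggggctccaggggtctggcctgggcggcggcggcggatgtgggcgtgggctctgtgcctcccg
An E2F site (TTTCCCGC, TTTGGCGC, TTTCGCGC or TTTGCCGC) was in 14 of 24 windows of the list (58.3%) and in 4.49% of those of all tested genes. Uhrf1 was at 127, 118 and 113 CPM at 12 h and 215, 201 and 190.0 CPM at 24 h. It rose by 0.76 ± 0.16, the sliding clamp Pcna by 0.70 ± 0.13, the flap nuclease Fen1 by 0.67 ± 0.08 and DNA ligase Lig1 by 0.60 ± 0.15. None of the 30 was called higher in TPM. Without 24 h replicate 1, where 20 of the 30 had the highest value of the 6 libraries, 10 rose, and with the replicate number as a block 19 did. In the step after, the whole list changed course: all 30 had a lower change than in the step to 24 h, with a median of -1.48, and the replication list held no gene with the opposite difference.

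Of 27 tested genes of nucleotide supply 7 rose and 13 fell (in TPM 2 and 16). Rrm2, a subunit of ribonucleotide reductase, rose by 0.84 ± 0.21, the thymidylate synthase Tyms by 0.90 ± 0.11, and the salvage kinases Dck and Tk1 by 0.99 ± 0.15 and 0.76 ± 0.15. Cad, which starts pyrimidine synthesis, was at 126, 109.5 and 97.8 CPM at 12 h and 64.4, 48.6 and 51.9 CPM at 24 h and fell by 1.02 ± 0.15. The folate enzyme Mthfd1 fell by 1.56 ± 0.17, Impdh1, which leads to guanine nucleotides, by 1.27 ± 0.11, and Atic, which closes the purine ring, by 0.84 ± 0.15. Rrm2 and Tk1 were not called in TPM, and Dck and Tyms not there with a pseudocount of 0.1.

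Among the genes that time the cell cycle the activator E2F2 stood out. E2f2, which red cell precursors use in their last divisions, was at 113, 119 and 111 CPM at 12 h and 540.2, 585 and 569 CPM at 24 h, a rise of 2.31 ± 0.10. The repressive members E2f7 and E2f8 rose by 1.53 ± 0.16 and 1.37 ± 0.14, and the partner Tfdp2 by 1.22 ± 0.14. Of the D cyclins, Ccnd3, the one of erythroid cells, rose by 0.91 ± 0.11 with 542, 559 and 534 CPM at 12 h and 1018, 1037 and 1011 CPM at 24 h, although it was not called in TPM. Ccnd2 was not called (0.23 ± 0.15). Ccnd1 was near 0 at both times and fell by 2.77 ± 0.67, with 0.479, 0.528 and 0.520 CPM at 12 h and 0.0587, 0.0226 and 0.156 CPM at 24 h. Cdk4 fell by 0.61 ± 0.21, a call that was lost without 12 h replicate 1, 24 h replicate 2 or 24 h replicate 3. In all 13 of 23 genes of G1 and E2F rose and 2 fell, and in TPM 4 were higher and 5 lower.

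The inhibitors of cyclin-dependent kinases did not move as 1 group. Cdkn2d (p19) rose by 2.06 ± 0.15, with 5.83, 5.99 and 4.66 CPM at 12 h and 23.1, 24.8 and 20.9 CPM at 24 h, and the phosphatase Cdkn3 rose by 1.27 ± 0.18. Cdkn2c (p18) rose by 0.57 ± 0.10, not called in TPM. Cdkn2b (p15) fell by 1.46 ± 0.27, between rises of 1.81 ± 0.27 before and 3.06 ± 0.27 after. Cdkn1b (p27) changed by 0.32 ± 0.12, a call lost without each library except 24 h replicate 1. In TPM it showed almost no change (-0.00448, not called). Cdkn1a (p21) changed by 1.40 ± 0.46 at under 1 CPM, a call lost without 12 h replicate 2, 24 h replicate 1 or 24 h replicate 2. Without 12 h replicate 2 or 24 h replicate 2, 3 of the 8 members rose in place of 5. Cdkn1c and Cdkn2a were not called, and in TPM 2 members were higher and 2 lower.

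Histone cluster genes, whose main transcripts lack a poly(A) tail, were low in these poly(A) libraries. Their summed level was 469 to 498 unscaled CPM at 12 h and 785 to 822 at 24 h. Of 56 tested genes 23 rose and none fell, and the median change was 0.99 (0.55 in TPM). The linker histone Hist1h1d rose by 1.70 ± 0.22, with 1.80, 1.83 and 1.81 CPM at 12 h and 6.99, 5.40 and 5.21 CPM at 24 h. The H2B genes Hist1h2bq and Hist1h2bp rose by 2.24 ± 0.38 and 2.21 ± 0.47. These genes are near copies of each other, so reads may be split among them.

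Ribosome production went the other way. Of 40 tested genes of ribosome biogenesis 34 fell and none rose, and the median change was -0.64 (-0.92 in TPM). Nop2, a methyltransferase of the large subunit RNA that fell by 0.74 ± 0.13, is shown for its E-box (CACGTG, capitals, 60 bases before the start), the site of MYC and MAX. It lies at chr6:125131633-125131882 on the plus strand.
Nop2: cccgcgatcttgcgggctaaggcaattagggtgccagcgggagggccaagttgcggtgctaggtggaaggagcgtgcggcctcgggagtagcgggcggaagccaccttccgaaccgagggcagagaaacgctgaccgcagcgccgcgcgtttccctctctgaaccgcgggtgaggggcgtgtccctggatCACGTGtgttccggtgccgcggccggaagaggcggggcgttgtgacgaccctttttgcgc
The E-box was in 7 of 35 windows of the list (20.0%), against 11.3% of all tested genes. In the other lists searched its share ran from 4.55% (membrane and skeleton) to 42.9% (heme synthesis, 3 of 7 windows). Npm1, the nucleolar chaperone, was at 519.9, 558 and 487 CPM at 12 h and 201, 244 and 233 CPM at 24 h and fell by 1.21 ± 0.15 (adjusted p = 3.27e-06). Rrp9, a protein of the U3 particle, fell by 1.10 ± 0.15, the processing factor Utp20 by 0.92 ± 0.10 and Gar1, which guides pseudouridine changes, by 0.87 ± 0.15. The step before had a median of -0.99, and in 16 of 40 genes the change to 24 h lay above the gene's own change to 12 h, against 11.4% of all genes. Of the step after, 31 of 40 changes lay below the step to 24 h, with a median of -1.47.

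Genes for the proteins of the ribosome itself were not called on the TMM scale. None of 45 tested cytosolic ribosomal protein genes was called in the quasi-likelihood test (1 was lower with the replicate block, and 1 without 24 h replicate 1), with changes from -0.27 to 0.33. In TPM 6 of them were lower and none was higher. Of 30 genes of the mitochondrial ribosome 19 fell and 1 rose, and the median change was -0.35 (-0.63 in TPM). The 24 translation factors had 4 rises and 6 falls (3 falls without 12 h replicate 1, 12 h replicate 2 or 24 h replicate 3), and the 20 tRNA synthetases had 3 rises and 8 falls.

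In the MYC network 3 of the MXD antagonists rose and 1 fell. Mxd3 and Mxd1, which compete with MYC for its partner MAX, rose by 1.35 ± 0.16 and 1.15 ± 0.14, and Mxi1 by 0.59 ± 0.15 (not called in TPM). Mxd1 was at 61.2, 64.4 and 64.1 CPM at 12 h and 136, 150.5 and 136 CPM at 24 h. Mxd4, of the same family, fell by 0.64 ± 0.11, Mlxip by 0.44 ± 0.09 and Mga by 0.39 ± 0.10. Myc itself was at 51.8, 39.8 and 56.1 CPM at 12 h and 40.1, 30.6 and 36.0 CPM at 24 h and was not called (-0.47 ± 0.19, adjusted p = 0.0583), after -1.90 ± 0.20 in the first half-day. It was called lower in TPM, without the low-count filter, in a fit of the 6 libraries alone and without 12 h replicate 2. Max was not called either (-0.06 ± 0.09).

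Chaperones fell as well, 12 of 24 with 1 rise, and the median change was -0.31 (-0.62 in TPM). The mitochondrial pair Hspd1 (Hsp60) and Hspe1 (Hsp10) fell by 1.24 ± 0.13 and 1.19 ± 0.15. Hspd1 was at 336, 334 and 335 CPM at 12 h and 141, 139 and 145 CPM at 24 h, so every 24 h value lay under every 12 h value. Hsph1, which reloads Hsp70, fell by 1.17 ± 0.11. The gene that rose was the Hsp40 member Dnajb1 (0.70 ± 0.10, not called in TPM).

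Heme synthesis rose in 7 of its 9 enzymes and fell in none, and the median change was 0.84 (0.54 in TPM). Alas2, the erythroid enzyme that starts the pathway, is shown for its GATA site (TTATCT, the reverse of AGATAA, capitals, 86 bases before the start, chrX:150547167-150547416 on the plus strand).
Alas2: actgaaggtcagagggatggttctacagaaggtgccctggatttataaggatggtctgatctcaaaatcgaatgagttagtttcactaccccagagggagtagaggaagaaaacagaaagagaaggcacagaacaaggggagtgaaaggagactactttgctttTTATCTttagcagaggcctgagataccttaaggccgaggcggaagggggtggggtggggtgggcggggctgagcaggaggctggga
AGATAA or TGATAA was in 3 of 7 windows of the heme list, in 10 of 22 of the membrane and skeleton list (45.5%) and in 13.9% of those of all tested genes. In the other lists searched its share ran from 2.86% (ribosome biogenesis) to 13.3% (sterol sensing and transport). CCACNCCC, sought as the KLF site, was in 1 of 7 windows of the heme list and 8 of 22 of the membrane and skeleton list (36.4%). Of all tested genes 25.1% held it. Alas2 was at 350.0, 335 and 347 CPM at 12 h and 1166, 1208 and 1094 CPM at 24 h, a rise of 1.75 ± 0.15 (adjusted p = 2.27e-08). Its housekeeping counterpart Alas1 was not called (-0.20 ± 0.14). Alad, Uros and Urod, which build the porphyrin ring, rose by 0.84 ± 0.14, 0.54 ± 0.07 and 0.95 ± 0.10. Of the mitochondrial end, Ppox rose by 0.84 ± 0.12 and the last enzyme, Fech, by 0.97 ± 0.12. Cpox was not called (0.39 ± 0.16, adjusted p = 0.0539), but it was with the replicate block (adjusted p = 0.0279), without the low-count filter, in the 6 libraries alone, with DESeq2 and without 24 h replicate 1. Alad and Uros were not called in TPM, nor was Ppox there with a pseudocount of 0.1. In 8 of the 9 genes the change was smaller than in the step before, whose median was 2.10, against 13.9% of all genes.

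Iron and heme carriers rose in 8 of 18 cases and fell in 3, and the median change was 0.32 (-0.21 in TPM). In TPM 4 were higher and 6 lower. Tfrc, which brings in iron, rose by 1.21 ± 0.13. The mitochondrial carriers Slc25a38 (glycine) and Slc25a39 (glutathione) rose by 1.11 ± 0.12 and 1.00 ± 0.11, and the iron carrier Slc25a37 (mitoferrin 1) by 0.96 ± 0.21 (not called in TPM). The heme exporter Flvcr1 fell by 0.68 ± 0.10, with 22.8, 21.1 and 22.7 CPM at 12 h and 15.1, 12.6 and 13.8 CPM at 24 h. The iron sensor Tfr2 fell by 0.66 ± 0.12 and the carrier Abcb8 by 0.34 ± 0.09. Of 12 storage and sensing genes 2 rose and 1 fell.

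All 4 adult globin genes rose. Hbb-bs was at 1616, 1464 and 1351 CPM at 12 h and 11337, 11966 and 9599 CPM at 24 h, a rise of 2.89 ± 0.28, and Hbb-bt, its neighbour on chromosome 7, rose by 1.95 ± 0.22. The alpha genes Hba-a2 and Hba-a1 rose by 2.74 ± 0.32 and 1.40 ± 0.36, but within each pair the reads of near-identical copies may be assigned to the wrong one, and the TPM test with a pseudocount of 0.1 or without a filter did not call Hba-a1. The minor theta-like gene Hbq1b rose by 2.75 ± 0.29, and Hbq1a, with 6 counts in all at 12 h, by 3.82 ± 0.62. Of the embryonic genes, Hbb-bh1 was at 12.1, 13.8 and 13.7 CPM at 12 h and 22.9, 36.7 and 32.9 CPM at 24 h and rose by 1.23 ± 0.42, a call that was lost without each library except 24 h replicate 1 and in TPM. Hbb-y (0.41 ± 0.41), Hba-x and Hbb-bh2 were not called.

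The membrane and its skeleton rose in 21 of 30 genes and fell in 2, and the median change was 0.77 (0.39 in TPM). Slc4a1 (band 3), the main anion exchanger, was at 1899.9, 2377 and 2244 CPM at 12 h and 6458, 7499 and 6752 CPM at 24 h, a rise of 1.67 ± 0.15. Glycophorin C (Gypc) rose by 1.67 ± 0.08, the water channel Aqp1 by 1.42 ± 0.17 and the blood group protein Rhd by 1.11 ± 0.11. The falls were those of the palmitoylated scaffold Mpp1 (-0.63 ± 0.14), which had risen by 2.72 ± 0.15 to 12 h, and of the complement inhibitor Cd59a (-0.86 ± 0.18). In 15 of the 30 genes the change was below that of the step before, against 13.9% of all genes, and in 2 above.

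Surface markers used to stage erythroid cells moved in both directions. Kit was at 104, 87.0 and 91.5 CPM at 12 h and 28.5, 32.7 and 32.0 CPM at 24 h and fell by 1.60 ± 0.21. Cd44, which falls as erythroblasts mature, was at 61.1, 51.5 and 55.4 CPM at 12 h and 25.2, 25.2 and 29.4 CPM at 24 h and fell by 1.08 ± 0.13, and the integrin beta chain Itgb1 fell by 0.83 ± 0.10. Its alpha partner Itga4 rose by 0.85 ± 0.11 and the receptor Epor by 0.38 ± 0.10 (not called in TPM). Icam4 rose by 0.44 ± 0.13, not called in TPM or without 12 h replicate 3 or 24 h replicate 1. Cd36 was at 1 to 3 CPM and was called only with the replicate block or with centred TPM (0.75 ± 0.38, adjusted p = 0.0182 with the block).

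Genes of late maturation rose in 18 of 23 cases and fell in none, and the median change was 0.62 (0.31 in TPM). The ubiquitin ligase Rnf123 rose by 1.22 ± 0.14, Ranbp10, a tubulin-binding protein, by 1.42 ± 0.12, the amino acid carrier Slc43a1 by 1.33 ± 0.12 and Ypel4 by 1.85 ± 0.22. Ypel4 was at 1.54, 1.58 and 1.86 CPM at 12 h and 5.76, 6.67 and 5.43 CPM at 24 h. Xpo7, an exportin of nuclear proteins in condensing nuclei, was not called (0.07 ± 0.11, with 56.7, 56.0 and 57.1 CPM at 12 h and 64.0, 57.7 and 56.8 CPM at 24 h) and rose by 6.26 ± 0.13 only in the step after, a difference between the steps with an adjusted p = 1.35e-13.

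**Figure D3:**
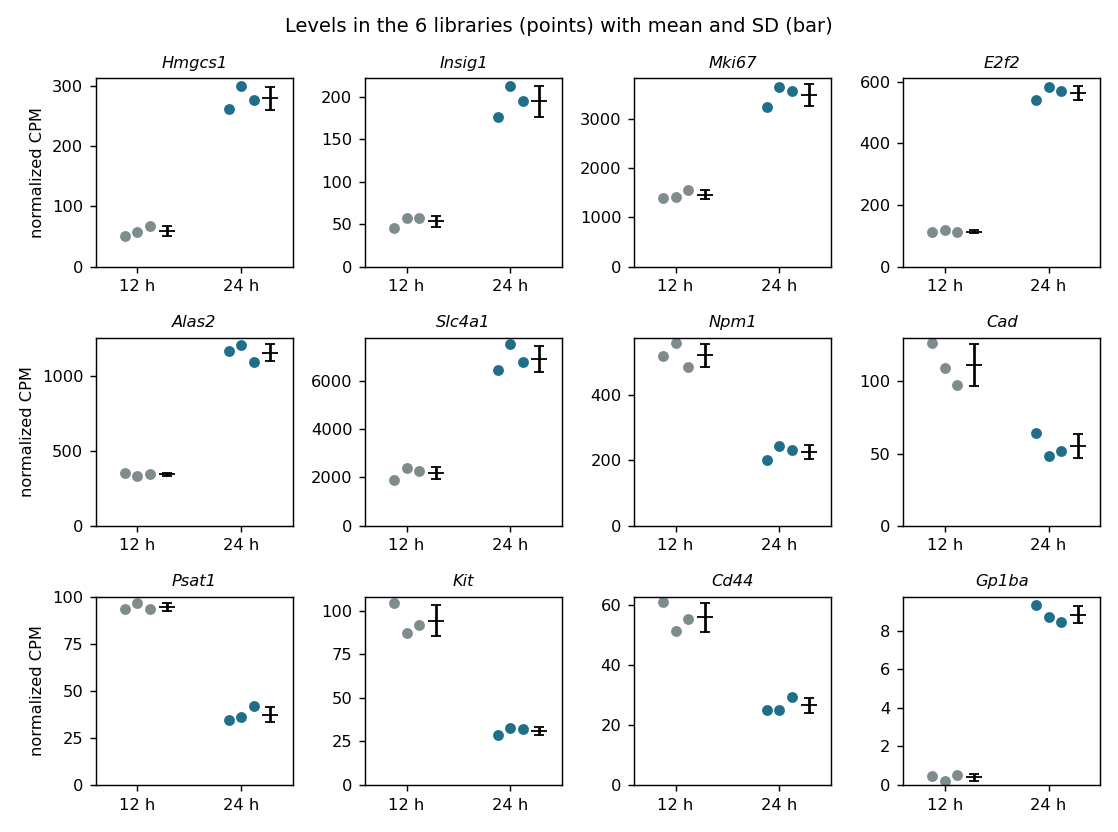
Normalized CPM of 12 genes in each of the 6 libraries (grey points 12 h, blue points 24 h), with the mean and SD of the 3 beside them. No gene shown has an overlap between the times, with Hmgcs1, Insig1, Mki67, E2f2, Alas2, Slc4a1 and Gp1ba higher at 24 h and Npm1, Cad, Psat1, Kit and Cd44 lower.

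Of 28 transcription factors and cofactors of the erythroid program 15 rose and 7 fell, and the median change was 0.25 (-0.03 in TPM). In TPM 6 were higher and 8 lower. The classic drivers rose little. Gata1 rose by 0.46 ± 0.08, Klf1 by 0.56 ± 0.10 and Tal1 by 0.49 ± 0.08, and none of the 3 was called in TPM. Nfe2, a factor of globin control, was at 137, 144 and 143 CPM at 12 h and 340.4, 402 and 359 CPM at 24 h and rose by 1.38 ± 0.08. Larger rises were those of Lyl1, a relative of TAL1, at 12.9, 12.1 and 12.2 CPM at 12 h and 82.3, 74.3 and 66.6 CPM at 24 h (2.58 ± 0.11), and of the corepressor Cbfa2t3 (ETO2), at 34.8, 30.3 and 33.2 CPM at 12 h and 126, 126 and 125 CPM at 24 h (1.94 ± 0.11). The progenitor factors fell. Myb was at 28.5, 23.5 and 26.3 CPM at 12 h and 10.2, 8.09 and 7.98 CPM at 24 h and fell by 1.57 ± 0.21, Gata2 by 0.88 ± 0.18, Spi1 (PU.1), which opposes GATA1, by 0.82 ± 0.11 and Nfia by 0.85 ± 0.14. Of 8 tested regulators and receptors of earlier progenitors 5 fell and none rose, among them Ikzf2 (-1.14 ± 0.21) and Etv6 (-0.63 ± 0.14), while the cytokine receptor genes Csf2rb and Csf2rb2, near copies of each other, were not called.

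Targets of Epo and STAT5 rose in 13 of 21 cases and fell in 2, and the median change was 0.44 (0.11 in TPM). In 9 members the signed change to 24 h lay above the member's own change to 12 h (11.4% of all genes). In 9 it lay below (13.9% of all genes). In TPM 7 were higher and 8 lower. The survival gene Bcl2l1 (Bcl-xL) was at 26.8, 23.5 and 23.8 CPM at 12 h and 81.9, 87.0 and 73.4 CPM at 24 h and rose by 1.71 ± 0.14, more than the 0.86 ± 0.14 of the step before (adjusted p = 0.0111). The feedback inhibitor Socs3 rose by 1.70 ± 0.14 and Erfe, the erythroid hormone that lowers hepcidin, by 1.05 ± 0.17. Cish, another feedback inhibitor, rose by 0.80 ± 0.14 (not called in TPM) after 7.77 ± 0.20 before. The kinase Pim1 rose by 0.45 ± 0.14, not called in TPM or without 12 h replicate 3 or 24 h replicate 2. Socs2 was not called (-0.06 ± 0.15). The cytokine Osm fell by 0.47 ± 0.15 after a rise of 6.61 ± 0.24, and that fall was not called without 12 h replicate 2 or 24 h replicate 1. Stat5a itself fell by 0.82 ± 0.11.

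Genes downstream of KIT and the ERK kinases had a median change of -1.90 to 12 h. SCF and dexamethasone were left out and Epo was given in that step. In the next step, with the medium unchanged, 5 of the 15 tested genes turned from a called fall to a called rise, against 2.18% of all genes. Only genes that first fell can turn so. Of all tested genes 3416 had fallen to 12 h and 269 of these turned, and both steps share the 12 h libraries. In all 5 rose and 2 fell (Kit and Ccnd1), and in 8 the change to 24 h lay above that to 12 h, against 11.4% of all genes, and in 1 below. Without 12 h replicate 3 or 24 h replicate 2, 3 rose, and in TPM 3 were higher and 4 lower. Etv5, a factor induced by ERK, was at 37.2 ± 0.551 CPM at 0 h (mean ± SD), then at 0.137, 0.242 and 0.173 CPM at 12 h and 1.76, 3.05 and 1.68 CPM at 24 h, so it changed by -7.66 ± 0.29 and then rose by 3.57 ± 0.35. Egr1, an immediate early gene, was at 120.2 ± 30.6 CPM at 0 h and at 9.64, 10.9 and 4.33 CPM at 12 h and 28.3, 63.6 and 20.4 CPM at 24 h, a rise of 2.17 ± 0.47. Its values spread widely, with 24 h replicate 2 highest, but the groups did not overlap. The inhibitors of the pathway Spred2 (counted among the Epo targets) and Spred1 rose by 1.72 ± 0.12 and 0.62 ± 0.14, the latter not called in TPM. Dusp6, an ERK phosphatase, was at 0.581, 0.418 and 0.297 CPM at 12 h and 0.920, 1.27 and 1.03 CPM at 24 h (1.26 ± 0.41), and the call was lost without 12 h replicate 2, 12 h replicate 3 or 24 h replicate 2. Fos was at 1.38, 3.72 and 1.96 CPM at 12 h and 2.82, 14.9 and 3.12 CPM at 24 h, where the groups overlap, and its call (1.58 ± 0.56) was lost in TPM and without 12 h replicate 1, 12 h replicate 3 or 24 h replicate 2. Etv4, with 4 counts over the 3 libraries of 12 h and 3 over those of 24 h, was at or near the floor of 3 counts, so no fold is given.

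Of 16 genes that dexamethasone is known to induce, 1 rose and 2 fell. Tsc22d3 (GILZ) rose by 1.13 ± 0.11, with 20.6, 19.9 and 22.8 CPM at 12 h and 43.9, 52.2 and 42.5 CPM at 24 h, after -0.94 ± 0.11 in the first half-day. Sgk1 fell further by 1.17 ± 0.13. Zfp36l2, which keeps early erythroid progenitors renewing, changed by -0.36 ± 0.14 after -3.29 ± 0.15, and this call was lost without each library except 12 h replicate 2.

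Amino acid genes controlled by ATF4 rose in 7 of 30 cases and fell in 7, near the 19.1% and 22.0% of all genes. The median change was 0.07 (-0.23 in TPM), and in TPM 5 were higher and 10 lower. Without any 1 of the 12 h replicates or without 24 h replicate 2, 5 rose. Those that rose include Slc1a5, a glutamine carrier (1.02 ± 0.10), Ppp1r15a (GADD34), which ends the stress block on translation (0.97 ± 0.14), the mitochondrial folate enzyme Mthfd2 (0.93 ± 0.11) and Atf4 itself (0.87 ± 0.11). The heme-regulated kinase Eif2ak1 (HRI) rose by 0.76 ± 0.10, a call lost in TPM with a pseudocount of 0.1. Of the 7 falls 4 (Phgdh, Psat1, Psph and Cth) belong to serine and cysteine synthesis, counted after the values were seen. Psat1 was at 93.5, 96.9 and 93.4 CPM at 12 h and 34.4, 36.1 and 41.8 CPM at 24 h and fell by 1.34 ± 0.09, and Psph, the next enzyme of the serine route, fell by 0.91 ± 0.08. Cth, which makes cysteine, was at 4.17, 4.91 and 5.52 CPM at 12 h and 0.196, 0.746 and 0.904 CPM at 24 h and fell by 3.03 ± 0.36, and Gpt2, an alanine transaminase, fell by 1.75 ± 0.26.

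Of 22 genes controlled by BACH1 or NRF2, which respond to heme and oxidants, 13 rose and 1 fell, and the median change was 0.47 (0.20 in TPM). The sulfiredoxin Srxn1 rose by 1.53 ± 0.17, with 12.3, 9.79 and 10.8 CPM at 12 h and 30.8, 32.8 and 31.3 CPM at 24 h, the quinone reductase Nqo1 by 1.31 ± 0.14, the partner protein Mafg by 0.98 ± 0.11 and the glutathione reductase Gsr by 0.91 ± 0.09. Gsta4 fell by 1.39 ± 0.15. The heme oxygenase Hmox1 was at 20.4, 23.3 and 22.4 CPM at 12 h and 10.9, 39.1 and 26.6 CPM at 24 h, with 24 h replicate 1 low, and was not called (0.21 ± 0.29), but it was called without 24 h replicate 1.

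Genes of cell death showed both arms. Among 15 members of the BCL2 family 7 rose and 1 fell, and in TPM 3 were higher and 3 lower. Besides Bcl2l1, the pro-death BH3 genes Bbc3 (Puma), Pmaip1 (Noxa) and Bid rose by 1.33 ± 0.25, 1.82 ± 0.36 and 0.84 ± 0.12, with Pmaip1 at under 1 CPM in all 6 libraries. Mcl1 rose by 0.44 ± 0.07 and Bnip3l, which marks mitochondria for removal, by 0.45 ± 0.13, neither called in TPM. Bcl2 fell by 1.23 ± 0.17, not called with centred TPM. Of 20 p53 targets 8 rose and 5 fell, with Xpc, Zmat3, Ccng1 and Aen among the falls. Their median change was 0.06 (-0.36 in TPM), and in TPM 3 were higher and 7 lower. Of 18 FOXO and quiescence genes 8 rose and 5 fell, and in TPM 3 were higher and 6 lower. Foxo3, a factor of late maturation, was at 222, 243 and 231 CPM at 12 h and 326, 475 and 382 CPM at 24 h (0.77 ± 0.12), Btg2, which slows division, rose by 1.19 ± 0.10, and the nutrient sensor Sesn3 fell by 1.79 ± 0.13.

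The low oxygen and glycolysis list depended on 24 h replicate 1. With all libraries 2 of 29 genes rose (Hk1 and a second identifier of Aldoa) and 4 fell, and the median change was -0.31 (-0.68 in TPM), and without that library 3 rose and 2 fell, with a median of 0.01. Without 24 h replicate 2, 1 rose and 6 fell, and with the replicate number as a block 4 rose and 4 fell. Hk2, the hexokinase induced by low oxygen, was at 11.2, 14.3 and 11.9 CPM at 12 h and 0.352, 6.31 and 3.68 CPM at 24 h. It fell by 1.87 ± 0.47, and by 1.31 (log2) without that library. Ero1l, which forms disulfide bonds in the endoplasmic reticulum, was at 204, 273 and 289 CPM at 12 h and 39.2, 125 and 96.0 CPM at 24 h and fell by 1.56 ± 0.28, and by 1.21 without it. Both stayed called. P4ha1, which hydroxylates collagen, was not called with all libraries (0.34 ± 0.26) and rose without it (0.68, edgeR adjusted p = 0.00661). Ankrd37 was at 7.98, 9.53 and 8.37 CPM at 12 h and 0.685, 12.2 and 8.36 CPM at 24 h and Pfkl at 83.5, 108 and 95.2 CPM at 12 h and 32.6, 110.4 and 87.2 CPM at 24 h, neither called either way. Hk1, the hexokinase of red cells, rose by 0.87 ± 0.11 (not called in TPM). The fall of Pfkm (-0.34 ± 0.13) was lost without any 1 of the 6 libraries, and that of Pfkp (-1.26 ± 0.42) without 12 h replicate 2, 12 h replicate 3, 24 h replicate 1 or 24 h replicate 3. What sets 24 h replicate 1 apart was not tested.

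The step to 24 h was set against its neighbours to find genes that turned. The change differed from that of the step before in 3124 genes (25.3%), above it in 1405 (11.4%) and below it in 1719 (13.9%). It differed from the step after in 6309 (51.0%). In the first half-day 25.3% of genes had risen and 27.6% had fallen, and from 24 to 36 h 34.1% rose and 39.0% fell. At 12 h 269 genes (2.18%) had turned from a called fall to a called rise, and 376 (3.04%) from a rise to a fall. The test of the difference between 2 steps counts the 12 h level in both, so the 2 steps are not independent.

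Of the genes that fell and then rose, Gp1ba, a platelet receptor chain, was at 3.21 ± 0.0198 CPM at 0 h and at 0.479, 0.198 and 0.495 CPM at 12 h and 9.30, 8.68 and 8.45 CPM at 24 h. Kit and ERK targets held 5 such genes of 15, Epo targets 4 of 21 and BACH1 or NRF2 genes 4 of 22. These are counts over all tested members, whether or not they had fallen to 12 h. Of those that rose and then fell, the epithelial factor Ehf was at 0.242 ± 0.147 CPM at 0 h, at 9.78, 14.9 and 18.9 CPM at 12 h and 0.705, 1.81 and 3.40 CPM at 24 h, and fell by 2.94 ± 0.36. Hal, which breaks down histidine, was at 0.127 ± 0.0501 CPM at 0 h and at 18.4, 23.3 and 24.3 CPM at 12 h and 4.84, 5.97 and 10.0 CPM at 24 h. Pga5, a pepsinogen, and Ano3, a scramblase family member, fell by 1.00 ± 0.18 and 1.23 ± 0.20. Stard13, a GTPase regulator with 0 counts at 0 h, was at least 169-fold higher at 12 h (against a floor of 3 counts over the group) and then fell by 1.74 ± 0.26.

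**Figure D4:**
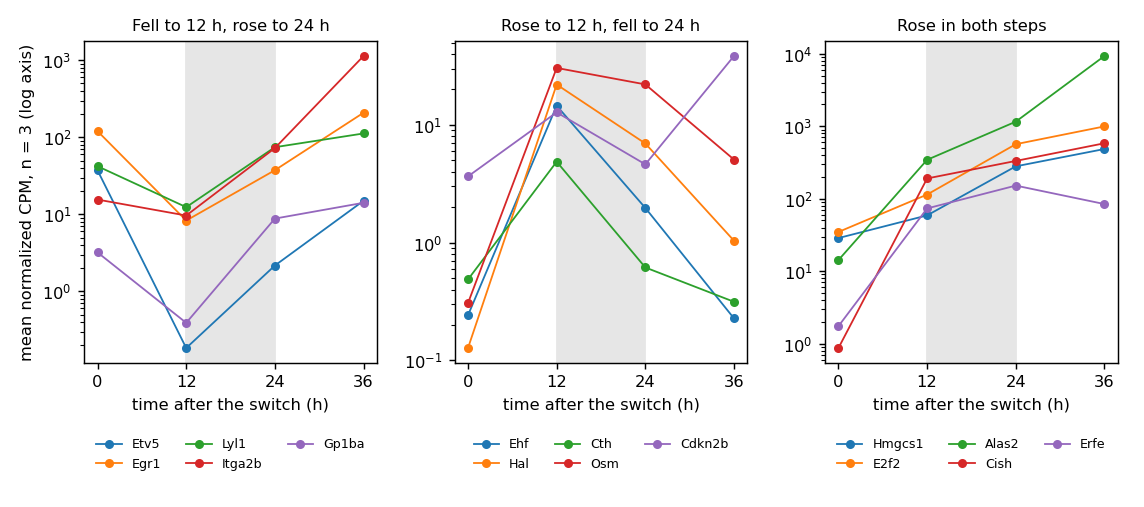
Mean normalized CPM (n = 3, log axis) at 0, 12, 24 and 36 h of genes that fell and then rose, that rose and then fell, and that rose in both steps, with the step from 12 to 24 h shaded. Etv5 went from 37.2 to 0.184 and back to 2.17 CPM, and Ehf from 0.242 to 14.5 and 1.97 CPM.

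At 24 h 24 genes (0.194%) stood at least 2-fold above both 12 h and 36 h, and 50 (0.405%) at least 2-fold below both. Of the peaks, Clec4g, a lectin, was at 1.21, 1.19 and 1.16 CPM at 12 h and 15.0, 12.4 and 10.3 CPM at 24 h and at 5.29 ± 2.65 CPM at 36 h. Lpcat1, which remodels phospholipids, rose by 1.31 ± 0.26, Fkbp1b, a calcium channel binder, by 1.32 ± 0.20 and Mybpc3, a cardiac myosin binder, by 1.65 ± 0.33, and all 3 fell by 36 h. Fasn and E2f8 were also among the 24, named here after their values were seen. Of the troughs, Bmp4, a signal of stress erythropoiesis, was at 16.0, 11.7 and 11.8 CPM at 12 h and 4.29, 4.41 and 4.83 CPM at 24 h and at 17.2 ± 2.85 CPM at 36 h. The signal adaptor Grb10 fell by 1.36 ± 0.16 and then rose by 1.88 ± 0.16. The glutamate carrier Slc1a3 fell by 1.48 ± 0.18, the annexin Anxa2 by 2.05 ± 0.37 and the peptidase Anpep by 1.42 ± 0.32. Vim, the intermediate filament vimentin, fell by 1.49 ± 0.57, lost without 12 h replicate 1, 12 h replicate 3, 24 h replicate 2 or 24 h replicate 3. The counts of peaks and troughs depend on the scale, and in TPM there were 66 peaks and 2 troughs.

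Beyond these lists, large rises at a mean count of 100 or more were those of Mrvi1 (3.79 ± 0.31), a regulator of calcium release in platelets and smooth muscle, Clec4g (3.40 ± 0.28), Gm867 (3.39 ± 0.43), the sphingosine-1-phosphate exporter Spns2 (3.23 ± 0.20) and the phosphatase Ptp4a3 (3.16 ± 0.17). Ptp4a3 was at 39.3, 34.2 and 31.6 CPM at 12 h and 323, 343 and 272 CPM at 24 h, the highest level of these. The glutathione transferase Gstt1 rose by 3.03 ± 0.20, and Btn1a1, a butyrophilin, by 2.82 ± 0.63 with wide spread, at 0.769, 1.98 and 1.63 CPM at 12 h and 5.19, 13.6 and 11.8 CPM at 24 h. Spns2 was at 6.34, 6.47 and 6.91 CPM at 12 h and 54.7, 65.3 and 64.7 CPM at 24 h. Large falls by the same rule were those of the TGF-beta binder Ltbp1 (-3.00 ± 0.32), Unc13c (-2.84 ± 0.28), the sphingosine-1-phosphate receptor S1pr1 (-2.76 ± 0.23), Pi16 (-2.64 ± 0.20), the growth factor Fgf2 (-2.49 ± 0.19) and the kinesin Kif26b (-2.33 ± 0.18). S1pr1 was at 9.81, 7.44 and 7.83 CPM at 12 h and 1.14, 0.837 and 1.81 CPM at 24 h. Groups without overlap were a condition for naming this receptor and Spns2, the exporter of its ligand.

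Markers of other blood cells were looked at beside these changes. Of 6 tested markers of megakaryocytes 4 rose: Gp1ba, Itga2b (2.91 ± 0.17, with 10.9, 9.24 and 8.84 CPM at 12 h and 78.6, 76.2 and 62.7 CPM at 24 h), Itgb3 (2.11 ± 0.40) and Gp9 (1.47 ± 0.15). The 17 listed markers summed to 35.9 to 39.2 unscaled CPM at 12 h and 158 to 169 at 24 h, while the platelet genes Ppbp, Selp, Treml1 and Clec1b were at 0 in all 6 libraries. Of 9 tested mast cell markers (15 listed) 3 rose and 3 fell. The proteases Mcpt1 and Mcpt2, which are near copies, rose by 2.28 ± 0.22 and 1.43 ± 0.27, with Mcpt1 at 176, 113 and 138 CPM at 12 h and 716, 675 and 683 CPM at 24 h. The list's sum was 331 to 495 unscaled CPM at 12 h and 1265 to 1392 at 24 h. The IgE receptor genes Ms4a2 and Fcer1a fell by 1.86 ± 0.34 and 2.18 ± 0.65 at about 1 CPM or less, and the tryptases Tpsab1 and Tpsb2 were at 0. Macrophage markers summed to 1.99 to 3.71 and then 3.50 to 5.53 unscaled CPM, and those of neutrophils, lymphocytes, stromal cells and embryonic stem cells to less than 2 in every library. Their part in the other results was not tested.

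Of 23 interferon-stimulated genes 3 rose and 2 fell, and the median change was 0.04 (-0.12 in TPM). The step after had a median of 4.43, and in 15 of 23 genes its change lay above that to 24 h. Of the 3 rises Stat2 (0.69 ± 0.14) was not called in TPM, and Irf7 (0.63 ± 0.23) and Oas3 (1.15 ± 0.38) were lost there and without 12 h replicate 1 or 12 h replicate 2. Irf7 was also lost without 24 h replicate 3. The membrane tether Bst2 fell by 1.08 ± 0.20. Of 34 proteasome genes 6 rose and 3 fell, but 2 rose without 12 h replicate 3 or 24 h replicate 1 and 3 without 12 h replicate 2 or 24 h replicate 2, and in TPM none was higher and 4 were lower. Of 30 respiratory chain genes of the nucleus 8 rose and 4 fell, 4 rose without 12 h replicate 3 or 24 h replicate 2 and 2 fell without 24 h replicate 2, and in TPM none was higher and 9 were lower. Of 32 lamina and pore genes 8 rose and 4 fell. In that list 5 rose without 12 h replicate 3 or 24 h replicate 2, 2 fell without 12 h replicate 1 or 24 h replicate 3 and 1 fell without 24 h replicate 2, and in TPM 2 were higher and 10 lower. Of 25 chromatin genes 7 rose and 6 fell, with 4 rises without 24 h replicate 2, and in TPM none was higher and 9 were lower. Of 26 autophagy genes 11 rose and 2 fell, with 1 fall without 12 h replicate 1 or any 1 of the 24 h replicates, and in TPM 4 were higher and 4 lower.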

How the data were processed

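The series holds 21 poly(A) RNA-seq libraries of MEDEP cells in 7 groups of 3, called biological replicates by the labels, and the comparison used the 6 of 12 and 24 h. The authors deposited estimated counts and TPM per gene in 1 table each. Kallisto, STAR 2.5.3a, DESeq2, GRCm38.p5 and mm10 are named, with no roles, per the submitters' processing notes, and 78.5% of the deposited estimated counts were whole numbers (tolerance 1e-06). The steps that made the deposited TPM values are not given in the sources used here. Library totals ran from 16.7 to 39.3 M.

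Counts were rounded, genes were kept by filterByExpr (minimum count 10, 12360 of 22483 genes), scaled by TMM, and all 21 libraries were fitted at once with edgeR 4.0.16 in R 4.3.3 (quasi-likelihood test, 2-sided, Benjamini-Hochberg adjustment over all tested genes, threshold 0.05). The standard error of a log2 change was taken from the F statistic. Steps were compared by contrasts in the same fit. TPM was tested with limma 3.58.1 on log2(TPM + 1) where the mean TPM reached 1, and DESeq2 1.42.0 was an alternative, with others in the closing section. On counts simulated from the mean 12 h profile (11515 genes) the test for 24 h against 12 h recovered 77.6% of 1.5-fold, 97% of 2-fold and 100% of 4-fold changes with 7 false calls. Only 67, 67 and 66 genes above a minimum count were changed, in balanced directions, and replicates were drawn independently. In the real libraries 41.1% of genes were called, composition shifted and replicate numbers correlated, so these rates need not hold for them. Replicate libraries were compared by chi-square per gene, and no pair agreed within sampling noise.

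Deviations from the group means, in the libraries of 12 and 24 h with the same number, correlated at 0.566, 0.428 and 0.496 over 6180 genes, and those with different numbers at -0.4265 to 0.05713, so the replicate numbers were treated as pairing the samples in an alternative with the number as a block. What a number stands for is not stated.

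The members of the gene lists and the rules were chosen with earlier results of these data known. Named were the 12 largest rises and falls (mean count of at least 100, no overlap), up to 4 called members per direction of each list described and every member of lists of at most 15, the genes with the largest differences between steps, peaks, troughs and shares. Some members are not reported here. Lists that are described by counts alone name no members by this rule. Promoter sequences are RefSeq's (GRCm38.p6), used for sequence only, and 12351 of the tested identifiers matched the gene annotation.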

Additional observations from a re-analysis of the deposited data

Results flagged for a closer look

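Among genes called in both steps in opposite directions, with a mean count of at least 100 over the 6 libraries, 8 are given here in which the change from 12 to 24 h differed most from that of the first half-day, by the test of the difference in edgeR's fit (n = 3 per group). Those that rose and then fell were Stard13 (-11.63, change to 24 h minus change to 12 h on the log2 scale), Hal (-9.04), Ehf (-8.77), Ano3 (-8.68), Pga5 (-7.74), Osm (-7.08) and Cth (-6.36). Stard13 had 0 counts in the libraries of 0 h, so its fitted difference depends on the prior count, and with 3 counts over that group as a floor the difference was -9.14. Gp1ba fell and then rose, with a difference of 7.49. Both steps contain the 12 h libraries. In all 8 the values of the 12 h libraries did not overlap those of 24 h, against 58.6% of all tested genes. A call in this step was a condition of the choice, so this separation adds no support.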

How the results depend on the processing

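Of the 5079 called genes 4994 were still called in the same direction with DESeq2's size factors, 5073 with library sizes without globin genes, 4655 without the low-count filter and 5004 of 5073 with a value in DESeq2's Wald test. Fewer were kept in limma on log2(TPM + 1), 3083 of 4593 with a value, and 1 was called in the opposite direction. A pseudocount of 0.1 kept 2862 of 4593, and centred values kept 4157 of 4593. With the replicate block 5063 were kept and 5392 genes were called, and with the block in the 6 libraries alone 7188 were called, and 1190 and 1128 had a fold of at least 2. In TPM 602 genes were higher with a pseudocount of 1, 463 with 0.1 and 784 without the mean filter, 4286 and 4476 (no filter) were lower, and 759, 772 and, with centred values, 493 had a fold of at least 2. TPM gave 66, 79, 70 and, centred, 9 peaks, and 2, 13 and 2 troughs. With a pseudocount of 0.1 1170 genes differed from the step before. With shares in TPM the globin change was 11.48 percentage points, the mitochondrial genome -2.568 and ribosomal proteins -3.16. Cdkn1b showed almost no change in TPM, at -0.00448 with and without the mean filter and -0.00469 with 0.1. Leaving out each library gave 4072 to 4503 called, 1919 to 2100 higher, 2153 to 2403 lower, 1025 to 1170 with a fold of at least 2, 2165 to 2853 that differed from the step before, 5366 to 6362 from the step after, 21 to 32 peaks and 42 to 64 troughs. The cause of these differences was not tested. The block called Cd36, Cpox and mt-Nd1 in addition and changed no other call of a named gene. Depth limits genes near 0: Hbq1a had 6 counts over the 12 h libraries, and Etv4 had 3 over those of 24 h.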

Other observations

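Further values of single genes, within and outside the lists, are given for the step from 12 to 24 h. Odc1, the first enzyme of polyamine synthesis, rose by 1.10 ± 0.13, with 3340.3, 3159 and 3109 CPM at 12 h and 7334, 6818 and 6439 CPM at 24 h. Tmem88b rose by 2.87 ± 0.14 and Apol11a, with 0 counts at 0 h, by 2.93 ± 0.39. The G protein regulator Rgs13 fell by 2.40 ± 0.27, the metalloprotease Adam12 by 2.25 ± 0.18 and the membrane receptor Lrp4, a trough at 24 h, by 1.46 ± 0.25. Of the quiescence genes, Txnip, which restrains glucose uptake, fell by 0.76 ± 0.15 and the coactivator Cited2 by 0.87 ± 0.24, and of the p53 targets the repair gene Xpc fell by 0.81 ± 0.12 and Zmat3 by 0.95 ± 0.22. All are edgeR values of 3 against 3 libraries.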
